A study of Homo sapiens with 6 samples.

Results

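The 31 genes described here carry out or control the synthesis of cholesterol and fatty acids. They were taken by symbol from a list of 4 groups: 7 enzymes of the mevalonate route from acetyl-CoA to farnesyl diphosphate, 11 enzymes from squalene to cholesterol, 6 regulators and sterol carriers, and 7 enzymes of fatty acid and glycerolipid synthesis. No measured value entered the rule, although the members were chosen with earlier results of these data known. All 31 were found among the 38100 genes of the count table, and all 31 were among the 17720 genes with enough counts for a test. HK2 cells, a human kidney line of proximal tubular origin, were used. They had received adenovirus particles with an empty vector (AdCtrl) or with SIRT4 (AdSIRT4), and all samples of both groups were stimulated with TGF-β1, so no sample shows the genes without TGF-β1 or without virus. Each group had 3 samples of poly-A selected RNA, and these 6 samples are the whole series. The promoter that drives SIRT4 in the virus is not given in the sources used here. The study describes its replicates in vitro as technical, so the p-values may measure only the technical spread between these samples. The comparison asks how the RNA levels of the lipid synthesis genes differed when SIRT4 was overexpressed.

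Cholesterol is built in the endoplasmic reticulum and cytosol from acetyl-CoA, first through mevalonate to farnesyl diphosphate, then through squalene and lanosterol to the final sterol. The transcription factors SREBP-1 and SREBP-2, encoded by SREBF1 and SREBF2, switch on most of these enzymes. When membranes hold enough sterol, INSIG1 and INSIG2 keep SREBP and its escort SCAP in the endoplasmic reticulum. When sterol is low, SCAP carries SREBP to the Golgi, where proteases release its active part. SREBP-1 acts mainly on fatty acid genes and SREBP-2 mainly on sterol genes. SIRT4 is a sirtuin known chiefly from mitochondria, where it acts on enzymes of fuel use. Proximal tubule cells burn fatty acids as a main fuel and also make lipid.

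The letters CACNCCA, the core of the element that SREBP can bind, occur just before the start sites of several members. Printed here are 4 stretches that hold them. They are matches of letters, which 14.5% of 27305 promoters also hold, and binding was not measured. The stretches come from RefSeq (GRCh38.p14) and lie upstream of the RefSeq start site. In GENCODE v29 the genes begin elsewhere: the EBP stretch lies inside its gene, which begins at 48521158. The SCD stretch spans the first base of its gene, 100347124. Of the members that hold the letters CACNCCA within the 250 bases before the start site, on either strand, these 4 had the smallest unadjusted p. Each run has 30 bases and is written 5′ to 3′ in the direction of the gene. Capitals mark CACNCCA or its reverse complement and, in TM7SF2, also the reverse complement of CCAAT.
SREBF2, chr22:41832961-41832990, plus strand: atgacgcgccatCACCCCAcgcaccgcttc
SCD, chr10:100347108-100347137, plus strand: gcagaggccgggTGGTGTGgtgtcggtgtc
EBP, chrX:48521654-48521683, plus strand: cgtcccagtctcCACCCCAaacctaactca
TM7SF2, chr11:65111792-65111821, plus strand: gcgccgATTGGcTGGTGTGctgggcccagc
In SREBF2 the match begins 132 bases before the start site and lies within the longer form TCACNCCAC. The match to CACNCCA begins 113 bases before the start site in SCD, 142 in EBP and 68 in TM7SF2.

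SIRT4 was counted 31, 47 and 57 times in the AdCtrl samples and 1996, 7995 and 6827 times in the AdSIRT4 samples. In CPM, the count scaled by library size, this was 0.930 ± 0.309 against 76.0 ± 21.9 (SD, n = 3 each), a log2 fold change of 6.36 (SE 0.357, edgeR adjusted p = 0.00801), and reads of the virus and of the cell's own gene were not told apart. AdSIRT4 replicates 1, 2 and 3 had 51.2, 92.7 and 84.0 CPM of SIRT4, so replicate 1 had the least. SIRT4 fitted the labels in every sample, and its edgeR adjusted p was 0.0559, 0.203 and 0.186 without AdCtrl replicate 1, 2 or 3. The libraries held 41537353 to 85684748 counts. AdSIRT4 replicate 1 was the smallest of them and stood apart: its deviation from the other samples of its group had a Spearman correlation of -0.583 with gene length across all genes tested, against -0.176 to 0.171 in the AdCtrl samples. AdSIRT4 replicates 2 and 3 gave 0.496 and 0.514, each set against a mean that includes replicate 1. Values without replicate 1 are given beside the results that it moves. Of 9 renal epithelium markers, the keratin gene KRT8 was the highest, between 762 and 1030 CPM. In the same list CDH1 lay between 0.512 and 0.876 CPM and PAX2 between 0.963 and 1.47 CPM. Of 10 proximal tubule markers, 8 stayed under 1 CPM in every sample, among them LRP2, CUBN and AQP1. The other 2 were GGT1, at 197 to 249 CPM, and PDZK1, at 163 to 227 CPM. All 5 endothelial, 4 of 5 leukocyte, 4 of 7 fibroblast and 2 of 4 podocyte markers were under 1 CPM too. In bulk RNA, fewer cells of a type and less RNA per cell cannot be told apart.

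In the comparison of AdSIRT4 with AdCtrl, no lipid synthesis gene passed an adjusted p of 0.05. The fold changes were small in both directions: 17 members lay above 0 and 14 below, with log2 fold changes from -0.35 to 0.34 and a median of 0.039, beside a median of 0.021 over all genes tested. The smallest adjusted p was 0.612 (edgeR's quasi-likelihood test), and DESeq2 called no member either, while 2 of all 17720 genes (0.0113%) passed. At an unadjusted p under 0.05, 2 members were higher, INSIG2 and FADS2, and 0 were lower; over all genes 4.43% were higher and 3.5% lower. The 2 higher members fell to 0 without AdCtrl replicate 1, 2 or 3, and to 1 without AdSIRT4 replicate 2. The groups did not overlap in 2 members that were higher (INSIG2, FADS2) and 3 that were lower (SREBF2, SCD, ACLY), beside 9.66% and 9.77% of all genes. These shares of members are near the shares of all genes.

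**Figure D1:**
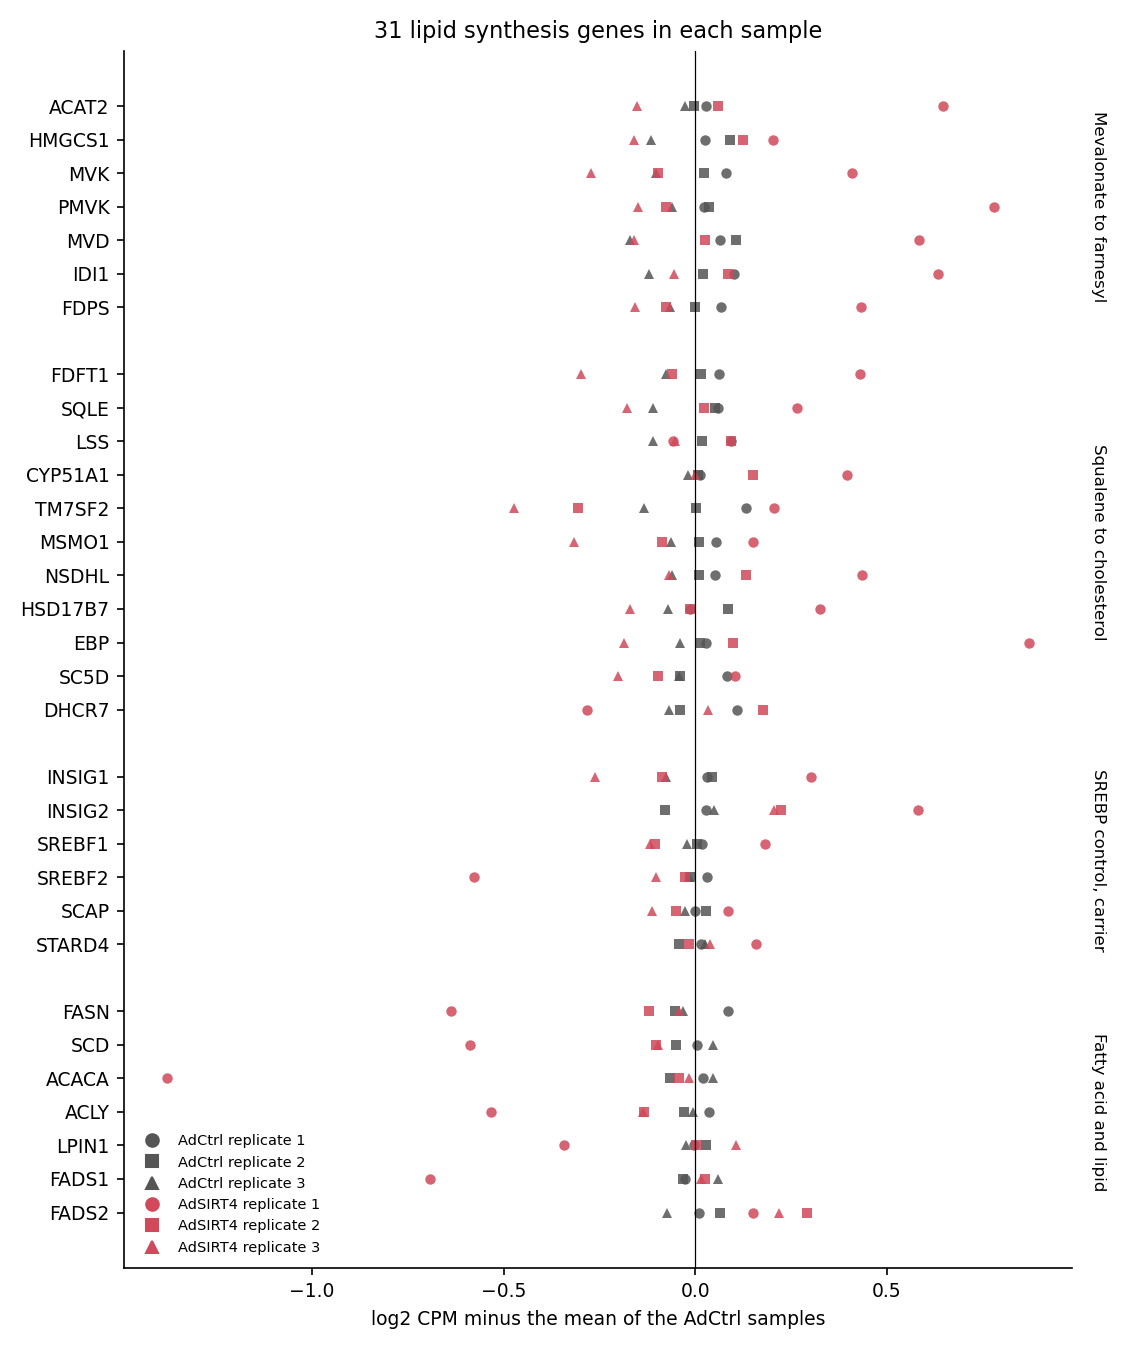
Each row is a lipid synthesis gene and each point a sample; the horizontal axis is log2 CPM minus the mean of the 3 AdCtrl samples, grey for AdCtrl and red for AdSIRT4, with the replicate number as shape. AdSIRT4 replicate 1 (red circles) lies to the right of all AdCtrl samples in 16 of the 18 sterol enzymes and to the left in 6 of the 7 fatty acid and lipid genes. By group medians the other AdSIRT4 samples are nearer the AdCtrl samples, but replicate 3 lies to the left of all of them in 13 of the 18 sterol enzymes.

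The controllers of the pathway had no common direction. INSIG2 (chromosome 2, 118088452 to 118110997, plus strand, hg38), which anchors the SCAP-SREBP complex in the endoplasmic reticulum, had 20.8, 19.3 and 21.1 CPM in AdCtrl and 30.5, 23.8 and 23.5 CPM in AdSIRT4, in the order of the replicate numbers, as in all such lists below. Every AdSIRT4 sample was above every AdCtrl sample, and replicate 1 was the highest. The log2 fold change was 0.34 (SE 0.129, unadjusted p = 0.0330, edgeR adjusted p = 0.612). Over the alternatives its adjusted p ranged from 0.0575 to 0.971. Without AdSIRT4 replicate 1 the log2 fold change was 0.20 (SE 0.0699, edgeR adjusted p = 0.103).

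INSIG1, its paralog and itself a target of SREBP, had 140.8, 142.1 and 130.8 CPM in AdCtrl and 169.9, 129.8 and 114.9 CPM in AdSIRT4. The AdSIRT4 samples lay on both sides of the AdCtrl samples, and the log2 fold change was 0.0025 (SE 0.154, unadjusted p = 0.988). Without AdSIRT4 replicate 1, INSIG1 had a log2 fold change of -0.18 (SE 0.0659, unadjusted p = 0.0207, edgeR adjusted p = 0.130). INSIG1 and INSIG2 thus had opposite signs in that fit, a difference that was not itself tested.

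SREBF2 (chromosome 22, 41833079 to 41907308, plus strand), which encodes the sterol-responsive SREBP-2, had 401.1, 388.5 and 388.2 CPM in AdCtrl and 263.3, 385.2 and 365.7 CPM in AdSIRT4. The groups did not overlap, but replicate 2 lay just under the lowest AdCtrl sample and replicate 1 was far below the rest. The log2 fold change was -0.22 (SE 0.158, unadjusted p = 0.214) and -0.07 (SE 0.052) without AdSIRT4 replicate 1. The exact two-sided permutation test gave p = 0.1, the smallest that 3 against 3 samples allow.

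SREBF1, which encodes SREBP-1, had 224.8, 222.8 and 219.0 CPM in AdCtrl and 251.9, 206.5 and 204.7 CPM in AdSIRT4. SCAP, the sterol-sensing escort, had 68.3, 69.6 and 67.0 CPM in AdCtrl and 72.4, 65.9 and 63.2 CPM in AdSIRT4. In both genes AdSIRT4 replicate 1 was above all AdCtrl samples and the other AdSIRT4 samples were below all of them. Their log2 fold changes were -0.01 (SE 0.114) and -0.02 (SE 0.0904). Without AdSIRT4 replicate 1 they were -0.12 (unadjusted p = 0.0372, edgeR adjusted p = 0.176) and -0.09 (unadjusted p = 0.117). STARD4, a cytosolic sterol carrier, had a log2 fold change of 0.06 (SE 0.0895), or 0.01 without that replicate, and its groups overlapped.

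All 7 enzymes of the mevalonate route had a log2 fold change above 0, with a median of 0.18 and a range from 0.04 to 0.25, and in none was p under 0.05. They are ACAT2, which joins acetyl-CoA units, HMGCS1, the HMG-CoA synthase, the kinases MVK and PMVK, the decarboxylase MVD, the isomerase IDI1 and FDPS, which makes farnesyl diphosphate. The sign rested on 1 library. All 7 were above every AdCtrl sample in AdSIRT4 replicate 1, where PMVK had 35.8 CPM against 19.8 and 18.8 in AdSIRT4 replicates 2 and 3 and 20.0 to 21.4 in AdCtrl. Without that replicate 6 of the 7 were below 0, and IDI1 was at 0.01. Of the 7, IDI1 alone was higher in AdSIRT4 within each pair of samples with the same replicate number.

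The 11 enzymes from squalene to cholesterol were split, with 6 log2 fold changes above 0, 5 below and a median of 0.05. They range from FDFT1, SQLE and LSS, which make and close squalene into lanosterol, through CYP51A1, TM7SF2, MSMO1, NSDHL, HSD17B7, EBP and SC5D, to DHCR7, which completes cholesterol. The extremes were EBP, the sterol isomerase, at 0.33 (SE 0.258, unadjusted p = 0.240) and TM7SF2, a sterol C14 reductase, at -0.17 (SE 0.189, unadjusted p = 0.393). EBP, named after its values were seen, had 109.9, 108.7 and 104.8 CPM in AdCtrl and 197.1, 115.3 and 94.7 CPM in AdSIRT4, so 1 sample carried its fold change, which was -0.04 (SE 0.0771) without it. CYP51A1, the lanosterol demethylase, was the only enzyme of the 11 that was higher in AdSIRT4 in each of the 3 pairs, with a log2 fold change of 0.19 (SE 0.120, unadjusted p = 0.157), and 0.07 (SE 0.0580) without AdSIRT4 replicate 1.

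With all samples, 6 of the 7 fatty acid and lipid genes had a log2 fold change below 0, against 5 of the 18 sterol enzymes. The median of the 7 was -0.24. This contrast rested on AdSIRT4 replicate 1. Without it, 4 of the 7 were below 0 with a median of -0.035, and 13 of the 18 sterol enzymes with a median of -0.078. ACLY (chromosome 17, 41866908 to 41930542, minus strand), which splits citrate to supply cytosolic acetyl-CoA for both pathways, had 339.5, 324.2 and 329.6 CPM in AdCtrl and 228.8, 301.9 and 301.4 CPM in AdSIRT4. All AdSIRT4 samples were below all AdCtrl samples. Its log2 fold change was -0.26 (SE 0.135, unadjusted p = 0.0993, edgeR adjusted p = 0.697), and -0.14 (SE 0.0500, unadjusted p = 0.0175, edgeR adjusted p = 0.119) without AdSIRT4 replicate 1.

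SCD, the stearoyl-CoA desaturase that makes oleate, had 2425.4, 2332.6 and 2495.2 CPM in AdCtrl and 1608.3, 2251.9 and 2261.4 CPM in AdSIRT4. The groups did not overlap, and the distance between them was small beside the gap that separates replicate 1 from the other AdSIRT4 samples. Its log2 fold change was -0.24 (SE 0.168, unadjusted p = 0.188), and -0.10 (SE 0.0518) without replicate 1. FASN, the fatty acid synthase, had a log2 fold change of -0.24 as well (SE 0.168) and was lower in each of the 3 pairs, with log2 differences of -0.72, -0.07 and -0.01. Without replicate 1 its log2 fold change was -0.09 (SE 0.0579).

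FADS2, the delta-6 desaturase of polyunsaturated fatty acids, was the exception of the group. It had 26.4, 27.4 and 24.9 CPM in AdCtrl and 29.1, 32.1 and 30.5 CPM in AdSIRT4, and the lowest AdSIRT4 sample was above the highest AdCtrl sample. Its log2 fold change was 0.22 (SE 0.0934, unadjusted p = 0.0485, edgeR adjusted p = 0.628), with an unadjusted p = 0.0811 when the replicate number was a block. It was 0.25 (SE 0.0683, edgeR adjusted p = 0.0509) without AdSIRT4 replicate 1, so this difference did not rest on that library, and the adjusted p over the alternatives ran from 0.0243 to 0.971. FADS2 (chromosome 11, 61792980 to 61867354, plus strand) shares exonic positions with FEN1 on its own strand and with FADS1 on the opposite strand. Its neighbour FADS1, the delta-5 desaturase, had a log2 fold change of -0.18 (SE 0.197), and 0.01 without AdSIRT4 replicate 1.

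ACACA, the acetyl-CoA carboxylase that commits carbon to fatty acids, had the lowest log2 fold change of all members, -0.35 (SE 0.330, unadjusted p = 0.317). Named after its values were seen, it had 145.5, 137.3 and 148.2 CPM in AdCtrl and 55.3, 139.4 and 141.9 CPM in AdSIRT4. Replicate 1 alone set this value, and without it the log2 fold change was -0.04 (SE 0.0533).

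**Figure D2:**
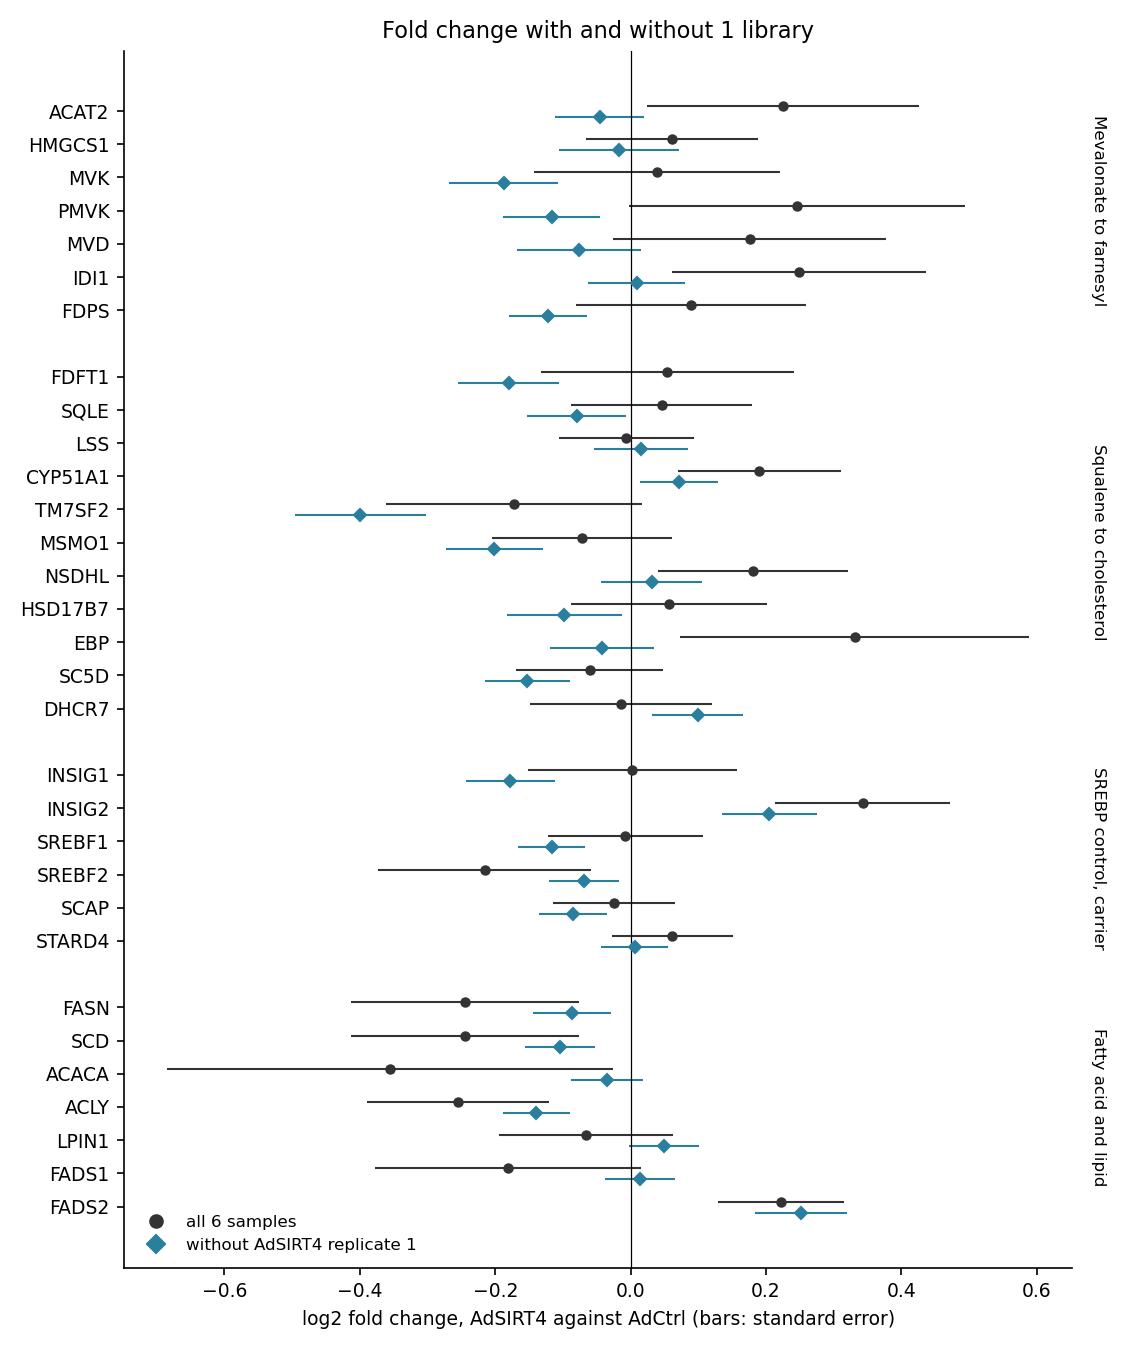
Log2 fold change of each lipid synthesis gene (AdSIRT4 against AdCtrl, edgeR), with the standard error as a bar, for all 6 samples (circles) and without AdSIRT4 replicate 1 (diamonds). With all samples the mevalonate enzymes lie above 0 and 6 of 7 fatty acid and lipid genes below it; without replicate 1, 21 of 31 genes lie below 0, TM7SF2 lies at -0.40, and INSIG2 and FADS2 stay above 0.

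AdSIRT4 replicate 1 differed from the other AdSIRT4 samples in each group of genes. It was the highest AdSIRT4 sample in 16 of 18 sterol enzymes and in 5 of 6 regulators and carriers. It was the lowest in 7 of 7 fatty acid and lipid genes. It lay above all AdCtrl samples in 88.9% of the sterol enzymes and below all of them in 85.7% of the fatty acid and lipid genes, where all genes tested gave 41.3% in each direction. Gene length went along with this between the sterol enzymes and the fatty acid and lipid genes. The sterol enzymes had a median length of 2252 bases and the fatty acid and lipid genes 5203 bases. The regulators and carriers had 4186 bases, above the 3154 of all genes tested, although replicate 1 was the highest in most of them. Across the 31 members, the deviation of replicate 1 from the mean of replicates 2 and 3 had a Spearman correlation of -0.83 with length, a description over genes that share the same libraries. PMVK, with 994 bases, was at 1.86 times the level of the other AdSIRT4 samples and ACACA, with 9671 bases, was at 0.394 of their level. DHCR7, the last enzyme of the route, was below them although it has 2603 bases, with a log2 difference of -0.39.

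When the trend of each library with gene length was taken out, part of the split between the groups stayed. The median of the sterol enzymes in AdSIRT4 replicate 1, relative to the AdCtrl mean, went from 0.40 to 0.26 on the log2 scale. That of the fatty acid and lipid genes went from -0.59 to -0.33, and that of the regulators and carriers rose from 0.17 to 0.27. In a fit without that trend and with the replicate number as a block, 2 members were lower at an unadjusted p under 0.05, TM7SF2 (-0.27, unadjusted p = 0.0143) and ACLY (-0.22, unadjusted p = 0.0498), and 2 were higher, INSIG2 (0.35, unadjusted p = 0.0144) and FADS2 (0.21, unadjusted p = 0.0341). None of the 31 passed an adjusted p of 0.05 in that edgeR fit, in which 6.41% of all genes were lower and 7.48% higher at an unadjusted p under 0.05. The source of the difference in replicate 1, whether in the RNA, the library or the cells, was not tested.

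Without AdSIRT4 replicate 1, more members lay below 0 than above it. In this fit of 3 AdCtrl against 2 AdSIRT4 samples, 21 members were below 0 and 10 above, with a median log2 fold change of -0.08 beside -0.003 over all genes. At an unadjusted p under 0.05, 8 members were lower and 2 higher, where all 18287 genes of that fit gave 12.5% lower and 11.8% higher. The 8 were TM7SF2, MSMO1, FDFT1 and SC5D of the steps after farnesyl diphosphate, MVK, the regulators INSIG1 and SREBF1, and ACLY. The 2 were again INSIG2 and FADS2. Only TM7SF2 passed an adjusted p of 0.05, against 6.71% of all genes.

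TM7SF2 (chromosome 11, 65111845 to 65116384, plus strand) had 17.2, 15.7 and 14.3 CPM in AdCtrl and 18.1, 12.7 and 11.3 CPM in AdSIRT4; it is named because of its call in this fit, after its values were seen. AdSIRT4 replicates 2 and 3 were below every AdCtrl sample and replicate 1 was above them. Without replicate 1 the log2 fold change was -0.40 (SE 0.0969, edgeR adjusted p = 0.0335), and with all samples and sample quality weights in limma voom it was -0.36 (adjusted p = 0.0364). With all samples unweighted it was -0.17 (edgeR adjusted p = 0.797). TM7SF2 shares exonic positions with VPS51 on the same strand, and reads there cannot be told apart. MSMO1, the sterol C4 methyl oxidase that acts just after it in the route, had 152.9, 148.3 and 140.9 CPM in AdCtrl and 163.6, 138.7 and 118.4 CPM in AdSIRT4, the same pattern over samples, with a log2 fold change of -0.20 (edgeR adjusted p = 0.114) without replicate 1.

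The sterol enzymes also shared a pattern over replicate numbers that the groups do not explain. Replicate 3 was the lowest sample of both groups in 16 of the 18 sterol enzymes (88.9%), all but LSS and DHCR7, against 15.9% of all genes tested and 0 of the 7 fatty acid and lipid genes. With the length trend removed it was 17 of 18 (94.4%, against 14.8% of all genes). The median of the sterol enzymes relative to the AdCtrl mean was 0.06, 0.01 and -0.07 on the log2 scale in the AdCtrl samples and 0.40, 0.02 and -0.16 in the AdSIRT4 samples. AdSIRT4 replicate 3 was below all AdCtrl samples in 13 of the 18 (72.2%, against 31.9% of all genes) and above all of them in 0. The labels do not say what the replicate numbers stand for.

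Within pairs of the same number the direction was therefore mixed. The median log2 difference of the sterol enzymes was 0.35 in pair 1, -0.04 in pair 2 and -0.09 in pair 3, and that of the fatty acid and lipid genes was -0.59, -0.03 and -0.05. Of the 31 members, 5 were higher in AdSIRT4 in all 3 pairs (IDI1, CYP51A1, INSIG2, STARD4, FADS2) and 4 were lower (SREBF2, FASN, SCD, ACLY). All genes gave 18.3% higher and 17.7% lower in all 3 pairs.

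**Figure D3:**
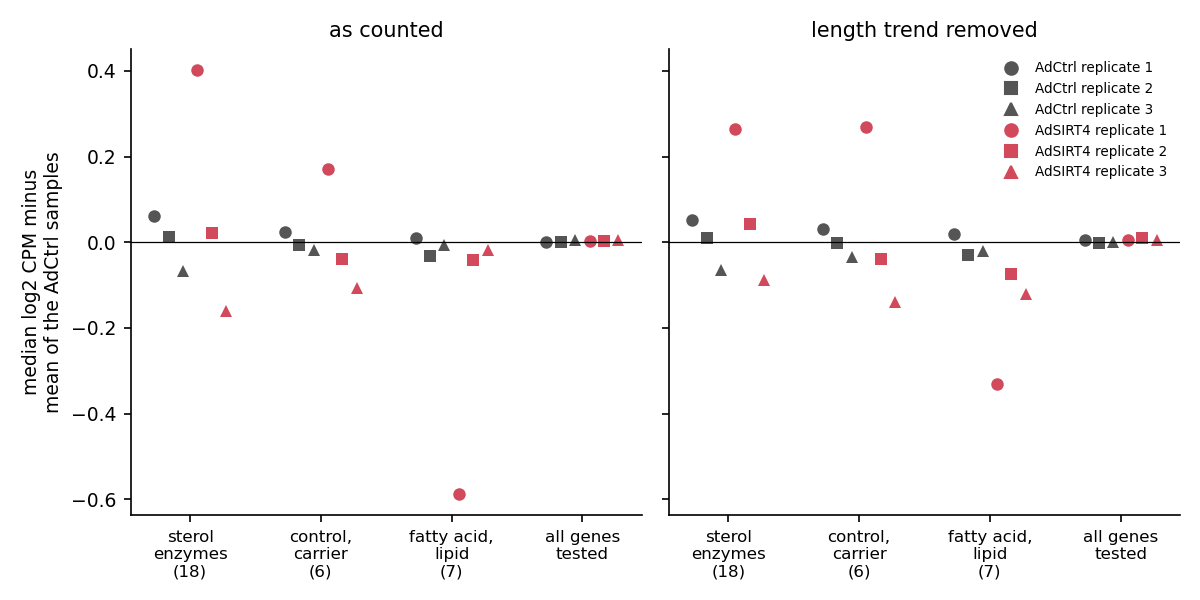
Median over the genes of a group of log2 CPM minus the AdCtrl mean, for each of the 6 samples (grey AdCtrl, red AdSIRT4, shape for the replicate number), as counted on the left and after removal of the length trend on the right. AdSIRT4 replicate 1 stands at 0.40 in the sterol enzymes and -0.59 in the fatty acid and lipid genes as counted, and at 0.26 and -0.33 with the trend removed, while the medians of all genes stay within 0.01 of 0.

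Levels between genes were compared per length, in FPKM (fragments per kilobase of gene, scaled by library size). SCD was the most abundant member, at 407 ± 26.8 FPKM in AdCtrl and 337 ± 76.5 in AdSIRT4 (SD, n = 3 each). FDPS followed with 185 ± 7.11 FPKM in AdCtrl, then EBP with 84.7 ± 1.60 and FDFT1 with 76.6 ± 2.62, and each of these stood apart from the next in the AdCtrl samples. ACLY, SREBF2, FADS1, MSMO1 and ACAT2 came next, from 68.4 down to 56.8 FPKM, and each overlapped its neighbour among these. In all, 14 of the 30 neighbours in the AdCtrl order overlapped. The least abundant were FADS2 (7.57 ± 0.148), SC5D (6.48 ± 0.351) and INSIG2 (5.09 ± 0.391). So the members with the clearest upward differences, INSIG2 and FADS2, were among the lowest in level. INSIG1 stood at 41.5 ± 0.687 FPKM, above INSIG2 in every sample. SREBF2 stood at 65.7 ± 2.27 FPKM, above SREBF1 at 40.2 ± 0.966 in the AdCtrl samples, while in AdSIRT4 they overlapped (55.7 ± 12.9 and 39.1 ± 3.03).

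**Figure D4:**
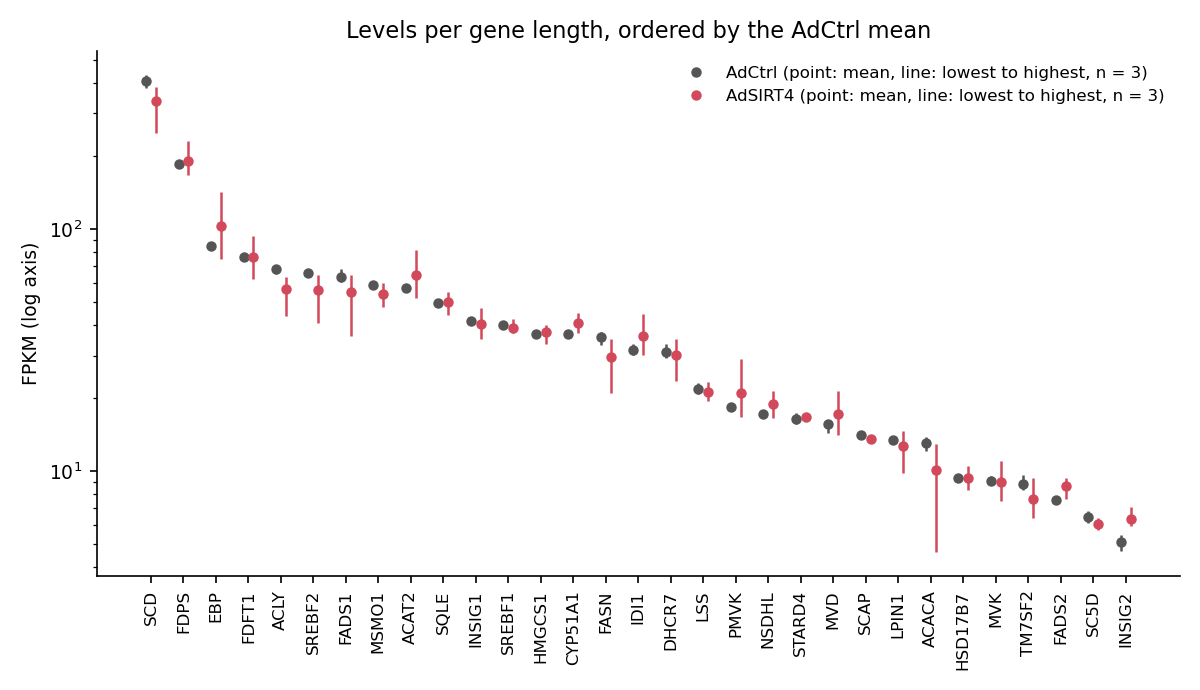
FPKM of the 31 lipid synthesis genes on a log axis, ordered by the AdCtrl mean; points are means and lines run from the lowest to the highest of 3 samples, grey for AdCtrl and red for AdSIRT4. SCD leads at 407 FPKM and INSIG2 closes the order at 5.09 FPKM, and the AdSIRT4 lines are longer than the AdCtrl lines in most genes.

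Promoter sequences from RefSeq were found for 27 of the 31 members, all but ACAT2, FDFT1, SQLE and FASN. In the 250 bases before the start site, on both strands, the letters CACNCCA occurred in 8 of the 27 (29.6%), namely MVK, MVD, TM7SF2, MSMO1, EBP, INSIG1, SREBF2 and SCD, against 14.5% of 27305 promoters. The longer form TCACNCCAC, which contains it, occurred in SREBF2 alone (3.7%, against 0.875%). CCAAT, the NF-Y motif often found beside such elements, occurred in 17 of the 27 (63.0%, against 33.0%), and GGGCGG, the Sp1 motif, in 25 (92.6%, against 42.3%). The E-box CACGTG, which SREBP can also bind, occurred in SC5D, INSIG1 and SCAP (11.1%, against 6.49%). The 8 holders of CACNCCA had no common sign: with all samples, SCD, SREBF2, TM7SF2 and MSMO1 had log2 fold changes below 0 and EBP, MVD, MVK and INSIG1 above it. A match is only a match of letters.

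Other genes of the pathways, from lists of general knowledge, gave 1 to 3 unadjusted calls per list and no adjusted call in edgeR with all samples. Of 15 further isoprenoid and sterol genes tested, 1 was higher at an unadjusted p under 0.05, beside 4.43% of all genes. This was NUS1, a subunit of the prenyltransferase of dolichol synthesis, with a log2 fold change of 0.31 (SE 0.118, unadjusted p = 0.0358). It was 0.18 (SE 0.0524) without AdSIRT4 replicate 1, and the unadjusted p was 0.0717, 0.108 and 0.104 without AdCtrl replicate 1, 2 or 3. POR, which passes electrons to SQLE and CYP51A1, had the next smallest p, with -0.15 (SE 0.121, unadjusted p = 0.259). It was -0.26 without AdSIRT4 replicate 1 (SE 0.0692, edgeR adjusted p = 0.0479), in a fit where 6.71% of all genes passed, and over the alternatives its adjusted p ran up to 0.971. Of 22 genes that handle SREBP after its synthesis, 2 were lower at an unadjusted p under 0.05, beside 3.5% of all genes: SEC23A, a coat protein of the vesicles that leave the endoplasmic reticulum, with -0.23 (SE 0.0837, unadjusted p = 0.0286), and MBTPS2, the site-2 protease that releases SREBP in the Golgi, with -0.25 (SE 0.102, unadjusted p = 0.0453). With the replicate number as a block neither stayed under 0.05 (unadjusted p = 0.0696 and unadjusted p = 0.0561). SEC23A also lost its call without AdCtrl replicate 1, 2 or 3 and AdSIRT4 replicate 2 or 3, with unadjusted p from 0.0692 to 0.121. MBTPS2 lost it without AdCtrl replicate 1, 2 or 3 and AdSIRT4 replicate 2, with unadjusted p from 0.0797 to 0.156. Their log2 fold changes without AdSIRT4 replicate 1 were -0.24 (edgeR adjusted p = 0.0220) and -0.18 (edgeR adjusted p = 0.0730). The median over the 22 genes was 0.02, as over all genes tested.

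Of 28 further fatty acid genes, 3 were lower at an unadjusted p under 0.05, beside 3.5% of all genes. The smallest p belonged to ACSS2, which makes acetyl-CoA from acetate in the cytosol and nucleus. It had 83.8, 82.8 and 86.6 CPM in AdCtrl and 67.7, 70.5 and 67.2 CPM in AdSIRT4. All AdSIRT4 samples were below all AdCtrl samples, and replicate 1 was like the others. The log2 fold change was -0.30 (SE 0.0818, unadjusted p = 0.00761, edgeR adjusted p = 0.496), with an adjusted p of 0.0165 in DESeq2, 0.680 with the replicate block and 0.544 in limma on log2(FPKM + 1). The edgeR adjusted p without AdSIRT4 replicate 1 was 0.00914, where 6.71% of all genes passed, and over all alternatives it ran from 0.00914 to 0.971. ELOVL4, an elongase of very long chains, had -0.37 (SE 0.135, unadjusted p = 0.0276), and -0.46 (edgeR adjusted p = 0.0372) without AdSIRT4 replicate 1. Its unadjusted p was 0.0914 and 0.0886 without AdCtrl replicate 1 or 3, and 0.0595 and 0.0864 without AdSIRT4 replicate 2 or 3.

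Of 21 genes of sterol uptake, transport and efflux, 15 had a log2 fold change below 0 (71.4%, against 46.6% of all genes), with a median of -0.09, and 2 were lower at an unadjusted p under 0.05, beside 3.5% of all genes. GRAMD1A, which moves cholesterol from the plasma membrane to the endoplasmic reticulum, had 53.3, 49.1 and 55.6 CPM in AdCtrl and 42.1, 40.5 and 41.1 CPM in AdSIRT4. The groups were well apart and the AdSIRT4 samples lay close together. The log2 fold change was -0.35 (SE 0.0902, unadjusted p = 0.00562, edgeR adjusted p = 0.494), with an adjusted p of 0.0272 in DESeq2, 0.667 with the replicate block and 0.128 with the length trend removed. In edgeR without AdSIRT4 replicate 1 the adjusted p was 0.00901, and over all alternatives it ran from 0.00803 to 0.971. OSBPL5, a lipid transfer protein of membrane contacts, had -0.45 (SE 0.176, unadjusted p = 0.0385), and -0.30 (SE 0.108) without AdSIRT4 replicate 1. Its unadjusted p was 0.0778, 0.0608 and 0.118 without AdCtrl replicate 1, 2 or 3. Without AdSIRT4 replicate 1, 12 of the 21 were below 0 and the median was -0.02.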

How the data were processed

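HK2 samples were grouped by their titles. Titles and paper name HK2 throughout, although the number in the cell-line label varies by sample. The authors deposited a table of whole read counts per gene, without normalization, and a table whose unit is not named and was read as FPKM, since for 11029 of 15894 genes (29 of the 31 members) the length implied by both tables agreed between samples within 5%. The submitters' processing notes list fastp 0.21.0, HISAT2 2.1.0, StringTie 2.1.5, DESeq2 1.30.1 and hg38 without roles. The counting program and strand setting are not given in the sources used here. Library totals were 53677241, 42102861 and 50190728 (AdCtrl) and 41537353, 85684748 and 80040053 (AdSIRT4), and 0 counts allow for as many as 3 (0.0350 to 0.0722 CPM, counting error only).

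The members and lists were chosen with earlier results of these data known. Counts were filtered with filterByExpr (minimum 10), scaled by TMM and tested with robust quasi-likelihood in edgeR 4.0.16 (R 4.3.3), with Benjamini-Hochberg adjustment over all 17720 genes, and single genes also by a two-sided exact permutation test. Values in every sample are given for members with an unadjusted p under 0.05 or groups without overlap, and for SREBF1, SREBF2, SCAP, INSIG1 and INSIG2, and the 2 smallest p of each other list are named. Other members with printed values were picked after these were seen. SEs were the log2 fold change over the square root of the F statistic. Alternatives were RLE scaling, DESeq2 1.42.0, other count filters, the replicate block, a lowess length trend removed (span 0.3), limma 3.58.1 with voom sample weights or on log2(FPKM + 1) and log2(FPKM + 0.1), and each sample left out. The procedure was tested on simulated counts with 200 changed genes. Across genes, deviations from group means correlated at 0.178, 0.159 and 0.176 for samples with the same replicate number, and at -0.188 to 0.0298 for others. Deviations within a group cancel out, so the negative values follow in part from the positive ones. Samples with the same number may be pairs. The paper names no pairs, so the main tests and the fits with a sample left out have no block. Blocking by number is named where it changes a call. Exons of 11 members overlap another gene of the count table (GENCODE v29), and FDPS, CYP51A1, HSD17B7, SCD and FADS2 have pseudogenes without a row of their own, so these values are uncertain. Tables were made with Python 3.11.15, numpy 2.4.6, pandas 2.3.3 and scipy 1.17.1, and figures with matplotlib 3.10.9.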

Additional observations from a re-analysis of the deposited data

How the results depend on the processing

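Depth put little limit on the members, whose lowest count was 669 (TM7SF2, AdCtrl replicate 2). The median log2 fold change of the members, 0.039, lay between -0.076 and 0.119 over all alternatives. No member passed an adjusted p of 0.05 under RLE scaling, DESeq2, either count filter, the length trend removed or limma on FPKM. With voom sample weights 2 did, and the share of all genes in that fit is not given here. With a sample left out 0 to 1 did, the 1 without AdSIRT4 replicate 1, where 6.71% of all genes passed. Members higher at an unadjusted p under 0.05 numbered 1, in place of 2, with all genes of at least 1 count, with at least 10 counts in every sample, with the replicate block and with each limma fit on FPKM, and 0 to 2 with a sample left out. Lower members numbered 2, in place of 0, with the length trend removed, with that and the replicate block, and with voom weights. With a sample left out they numbered 0 to 8, where the highest came without AdSIRT4 replicate 1. Of all genes, 6.41% were lower with the length trend removed and the block, and 12.5% without AdSIRT4 replicate 1. For the other alternatives no share of all genes is given here, so their counts of members have no background. Members below 0 numbered 9 to 21 with a sample left out, and 9 without AdSIRT4 replicate 3. SIRT4 was at 4.88 on log2(FPKM + 1) (limma adjusted p = 0.0778) and 6.10 to 6.59 with a sample left out.

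Signs changed in the following log2 fold changes, among them EBP, PMVK and ACAT2 without AdSIRT4 replicate 1, and the cause was not tested. INSIG1 was at -0.0014 with either count filter and -0.02 with the replicate block, which changed no other sign but ended the unadjusted calls of FADS2, SEC23A and MBTPS2. With the length trend removed FDPS was at -0.04, FDFT1 -0.0029, LSS 0.05, HSD17B7 -0.04, SC5D 0.08, INSIG1 -0.01, SREBF1 0.07 and SCAP 0.02. With the replicate block as well, MVK was at -0.0036, FDPS -0.04, FDFT1 -0.02, LSS 0.05, HSD17B7 -0.04, SC5D 0.04, INSIG1 -0.03, SREBF1 0.05 and SCAP 0.02. With voom weights MVK was at -0.14, PMVK -0.08, MVD -0.02, FDPS -0.09, FDFT1 -0.11, SQLE -0.03, LSS 0.05, HSD17B7 -0.05, DHCR7 0.12, INSIG1 -0.13, LPIN1 0.02 and FADS1 0.01. In each limma fit on FPKM, MVK was at -0.02, FDFT1 -0.02 and INSIG1 -0.05, and HSD17B7 at -0.0024, or -0.0031 with 0.1 added. With a sample left out, ACAT2 ran from -0.05 to 0.38, HMGCS1 from -0.02 to 0.16, MVK from -0.19 to 0.17, PMVK from -0.12 to 0.41, MVD from -0.08 to 0.32, FDPS from -0.12 to 0.20, FDFT1 from -0.18 to 0.20, SQLE from -0.08 to 0.15, LSS from -0.06 to 0.04, MSMO1 from -0.20 to 0.04, HSD17B7 from -0.10 to 0.16, EBP from -0.04 to 0.53, SC5D from -0.15 to 0.01, DHCR7 from -0.11 to 0.10, INSIG1 from -0.18 to 0.12, SREBF1 from -0.12 to 0.04, SCAP from -0.09 to 0.02, LPIN1 from -0.16 to 0.05 and FADS1 from -0.29 to 0.01.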
